A study of Mus musculus with 6 samples.

Results

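A set of genes that regulate or mark the tendon lineage (7 of the 26130 genes in the deposited count table) were followed in sorted mouse skeletal stem cells after a partial injury of the Achilles enthesis, the graded tissue that anchors tendon in bone. The members were taken by their symbols, Scx, Mkx, Six2, Tnmd, Tppp3, Htra3 and Chodl, and each symbol matched 1 row. All 7 had counts in at least 4 of the 6 libraries and all 7 passed the filter on low counts. The cells came from C57BL/6 mice at post-injury day 7 and gave 2 sham control, 1 uninjured and 3 injured libraries. The treatment label gives each sample its group, while the treatment protocol reads the same in all 6 samples and names the partial injury, also for the controls; the sources used here do not give the sham procedure, the age and sex of the mice, or whether a library is 1 animal or a pool. The uninjured library is called a sham in its description, so injured libraries were compared first with sham control alone and then with all 3 non-injured libraries. Because the labels do not name separate animals, a p-value here reflects the spread among these 6 libraries alone, part of which may be technical.

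Tendon cells descend from progenitors that switch on scleraxis (Scx), a basic helix-loop-helix transcription factor that binds E-box motifs, in response to TGF-beta and FGF signals. Mohawk (Mkx), an atypical homeobox factor of the TALE class, then sustains the making of collagen fibrils, and tenomodulin (Tnmd), a type II membrane protein with a BRICHOS domain, marks the differentiated tenocyte. At the enthesis a pool of progenitors that expresses both Scx and the cartilage factor Sox9 gives rise to the attachment unit. Six2 is a homeobox factor found in limb tendons and connective tissue, Tppp3 is a tubulin-binding protein that marks the tendon sheath and its progenitors, Htra3 is a secreted serine protease that can antagonize TGF-beta family signals, and Chodl (chondrolectin) is a membrane protein with a C-type lectin domain.

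Levels are given as CPM, counts scaled to 1000000 per library with TMM factors (trimmed mean of M-values). Between 37506188 and 51089267 counts were recorded per library, and 1 count was worth 0.0165 to 0.0276 CPM. Libraries differed in the transcripts of other cells. Of 8 erythroid markers 6 were in the table, and their share of counts was 3.74% in sham 1, 0.000106% in sham 2, 0.0139% in the uninjured library and 0.000742% to 0.538% in the injured libraries. The 10 macrophage markers made up 0.279%, 0.429% and 0.144% of counts in sham 1, injured 1 and injured 2, against 0.00376% to 0.0193% in the other 3 libraries. The 9 neutrophil markers took 0.958%, 0.00206% and 0.0868% in sham 1, sham 2 and uninjured libraries. In injured 1, 2 and 3 they took 0.556%, 0.0661% and 0.000441%. The 9 osteoblast markers took 0.33% to 2.1% in the non-injured and 0.124% to 0.695% in the injured libraries. The 11 skeletal muscle markers took 0.00159% to 0.0127%. Of the 9 endothelial markers 8 were at 0 in sham 2, and the list took 0.154% in sham 1, 0.0821% in the uninjured library and 0.00693% to 0.0267% in the injured libraries. The 9 chondrocyte markers took 0.587% to 2.68% in non-injured and 1.21% to 5.52% in injured libraries. This list holds Comp, also read below as a matrix gene of tendon, so its share does not follow cartilage genes alone. Comp stood at 4756, 11127 and 7067 CPM in sham 1, sham 2 and uninjured libraries. In injured 1, 2 and 3 it stood at 2495, 2872 and 5441 CPM. The 9 Schwann cell markers took 0.511%, 0.0787% and 0.104% in sham 1, sham 2 and uninjured libraries and 0.0535%, 0.0402% and 0.0373% in injured 1, 2 and 3, so this list was lower in every injured library than in any control; of its genes, Mag and Sox10 were at 0 in the uninjured library. Of surface genes commonly used to sort mouse skeletal stem cells, Itgav (31.1 to 116 CPM) and Cd200 (31.0 to 160 CPM) had counts in every library. Of the 5 commonly sorted against, Ptprc, the pan-leukocyte gene, stood at 9.95, 0 and 1.24 CPM in sham 1, sham 2 and uninjured libraries and at 24.8, 15.1 and 0 CPM in injured 1, 2 and 3. Tek, an endothelial receptor, had counts in every library, with 58.1, 0.580 and 61.7 CPM in the controls and 4.66 to 9.28 CPM in the injured libraries. Eng reached 201 CPM in sham 1 and 66.1 CPM in injured 1, Thy1 14.3 CPM in injured 1 and Enpep 16.1 CPM in sham 1. In bulk RNA a smaller share of cells that express a gene and less of its RNA per cell cannot be told apart.

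The injured libraries separated from the non-injured ones for 4 of the 7 genes. Scx was higher in every injured library than in any control, with a mean of 67.9 ± 18.6 CPM (SD, n = 3) against 29.0 ± 17.6 CPM (SD, n = 3) in all non-injured libraries. Chodl, Htra3 and Tppp3 were lower in every injured library than in any control: Chodl stood at 0.550 ± 0.952 against 16.3 ± 8.34 CPM, Htra3 at 335 ± 40.0 against 677 ± 108 CPM and Tppp3 at 166 ± 83.5 against 371 ± 181 CPM (SD, n = 3 each). The Schwann marker list was lower in the same libraries (0.0373% to 0.0535% of counts, against 0.0787% to 0.511%), and its part in these 3 results was not tested. Mkx, Six2 and Tnmd overlapped between the groups. In neither comparison did any of the 7 reach the threshold of 0.05 on the adjusted p (edgeR's quasi-likelihood F test, Benjamini-Hochberg). By DESeq2 Htra3 alone passed, in the comparison with all non-injured libraries.

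**Figure D1:**
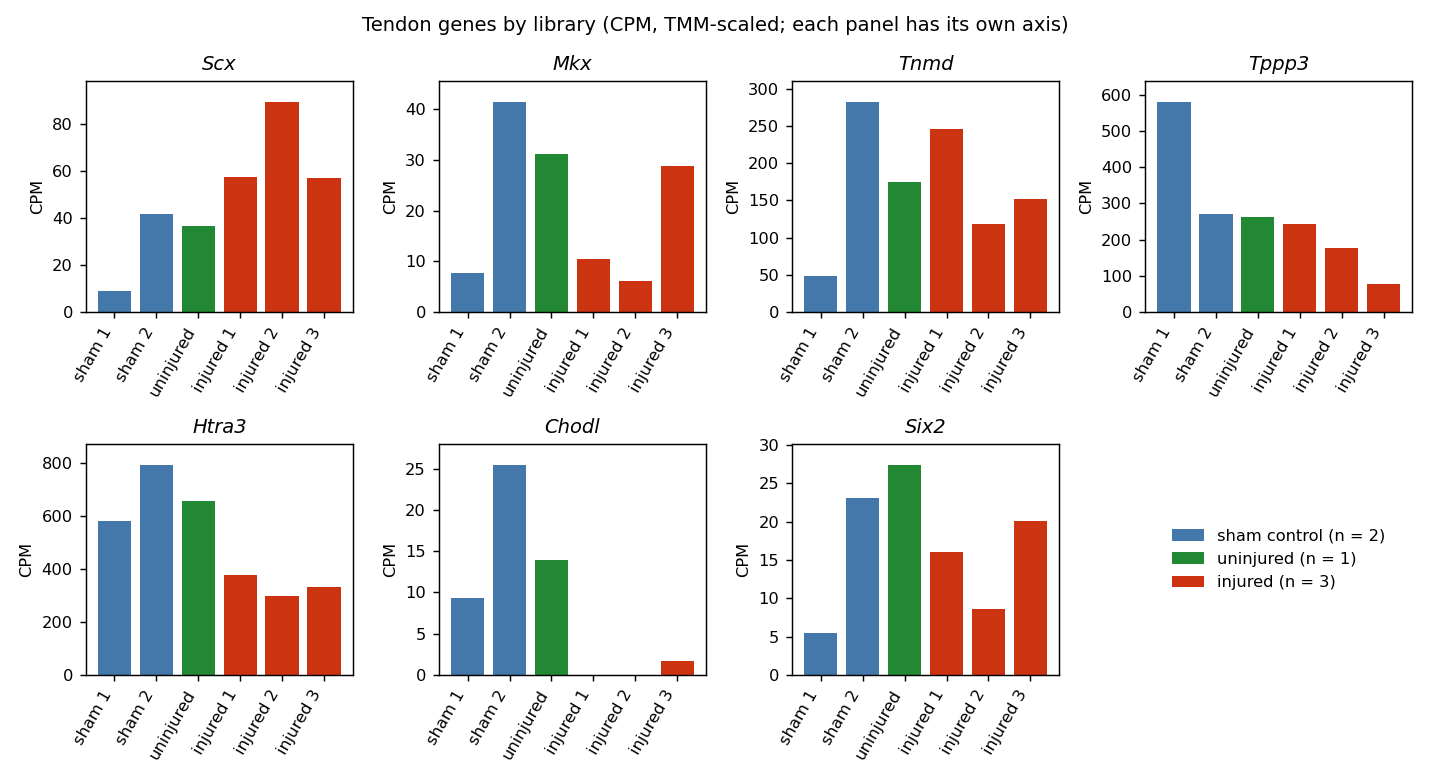
Level of each tendon gene in each library as CPM (vertical axis, starting at 0, one scale per panel), with sham control in blue, uninjured in green and injured in red. The injured bars lie above all others for Scx, from 56.8 to 89.3 CPM, and below all others for Tppp3, Htra3 and Chodl, while those of Mkx, Tnmd and Six2 overlap the controls.

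These counts were read against all genes. Injured and sham control libraries did not overlap for 4 of the 7 genes, while the same was true of 21% of the 16752 genes tested; 1 of the 7 was wholly higher (11.9% of all genes) and 3 were wholly lower (9.12%). Against all 3 non-injured libraries the groups were again apart for 4 of 7, against 16.3% of 14110 genes, with 1 wholly higher (9.23% of all genes) and 3 wholly lower (7.07%). The adjusted threshold was passed by 0% of genes by edgeR in both comparisons. At an unadjusted p under 0.05, edgeR's test held 1 of the 7 (Htra3) in each comparison, beside 4.64% of all genes against sham control and 7.43% against all non-injured libraries. DESeq2 called 0 of the 7 against sham control, where it called 2.2% of all genes (1.43% higher, 0.77% lower). Against all non-injured libraries it called 1 of the 7, which was lower, and 2.45% of all genes (0.992% higher, 1.45% lower). By limma-voom 0 of the 7 passed in both. The median log2 fold change of the 7 was -0.70 against sham control and -0.83 against all non-injured libraries, beside 0.09 and 0.00 over all genes tested. Both comparisons use the same injured and sham libraries, so they are not independent of each other.

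Scx, the earliest of the tendon transcription factors, stood at 8.92 and 41.6 CPM in sham 1 and 2, at 36.5 CPM in the uninjured library, and at 57.5, 89.3 and 56.8 CPM in injured 1, 2 and 3. Sham 1 was the lowest by far, while sham 2 and the uninjured library lay close to each other and below all injured libraries. The log2 fold change was 1.43 ± 0.70 (SE) against sham control and 1.22 ± 0.59 (SE) against all non-injured libraries (edgeR adjusted p = 0.865 and 0.747). It depended on the sham libraries in size, being 0.71 without sham 1 and 2.93 without sham 2, and stayed above 0 in both. Scx is a gene of 2 exons on the plus strand of chromosome 15 (GRCm38, chr15:76457452-76459458, GENCODE M21) that lies inside Bop1, a ribosome biogenesis gene of the minus strand. No exonic base is shared between them, but reads from introns of Bop1 could fall on Scx, and the sources used here do not say whether strand was used in counting. Bop1 stood at 43.1, 73.5 and 49.0 CPM in sham 1, sham 2 and uninjured libraries and, in injured 1, 2 and 3, at 142, 52.1 and 95.8 CPM. Its injured and sham values overlapped. The log2 fold change of Bop1 was above 0, like that of Scx. It was 0.73 ± 0.54 (SE) against sham control and 0.80 ± 0.44 (SE) against all non-injured libraries (edgeR adjusted p = 0.865 and 0.790). The part of Bop1 reads in the Scx counts was not tested.

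Mkx stood at 7.76 and 41.4 CPM in sham 1 and 2, at 31.3 CPM in the uninjured library, and at 10.4, 6.14 and 28.9 CPM in injured 1, 2 and 3. Each of the sham and injured groups thus held both low and high libraries, and their ranges overlapped almost wholly. The log2 fold change against sham control was -0.70 ± 0.94 (SE; adjusted p = 0.956 by edgeR), and it turned to 0.97 without sham 2. The low libraries, sham 1, injured 1 and injured 2, were the 3 richest in macrophage markers (0.144% to 0.429% of counts, against at most 0.0193% in the rest). The erythroid and skeletal muscle lists also had their highest shares in these 3 libraries. The neutrophil, endothelial and Schwann lists did not. Each of those took a larger share in the uninjured library than in injured 2 (0.0868% against 0.0661% for neutrophil markers). Six2 was low and high in the same libraries as Mkx. It stood at 5.41 and 23.1 CPM in sham 1 and 2 and at 27.4 CPM in the uninjured library. In injured 1, 2 and 3 it stood at 16.0, 8.55 and 20.1 CPM. Its log2 fold change was 0.06 ± 0.82 (SE) against sham control and -0.33 ± 0.72 (SE) against all non-injured libraries (adjusted p = 1.00 and 0.984 by edgeR). Without sham 1 the Six2 value against sham control was -0.63 and without sham 2 it was 1.46. The part of other cells in these levels was not tested.

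Tnmd, the late marker of tenocytes, stood at 48.5 and 282 CPM in sham 1 and 2, at 174 CPM in the uninjured library, and at 245, 118 and 152 CPM in injured 1, 2 and 3. All 3 injured libraries lay between the sham libraries, which differed from each other 5.82-fold. The log2 fold change was 0.06 ± 0.73 (SE) against sham control, with adjusted p = 1.00 by edgeR, and ranged from -0.71 without sham 1 to 1.83 without sham 2.

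Tppp3, the sheath marker, stood at 580 and 270 CPM in sham 1 and 2, at 262 CPM in the uninjured library, and at 244, 177 and 78.1 CPM in injured 1, 2 and 3. The groups did not overlap, but injured 1 lay only slightly below the uninjured library. The log2 fold change was -1.35 ± 0.58 (SE) against sham control and -1.16 ± 0.53 (SE) against all non-injured libraries, with adjusted p of 0.865 and 0.711 by edgeR. Leaving out sham 1 moved the value against sham control to -0.70.

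Htra3 varied least among the 7, with a highest library 2.68-fold above the lowest. It stood at 580 and 793 CPM in sham 1 and 2, at 658 CPM in the uninjured library, and at 376, 296 and 332 CPM in injured 1, 2 and 3. All injured libraries lay well below all controls, and the ratio of the group means of all non-injured over injured libraries was 2.02. The log2 fold change was -1.04 ± 0.38 (SE) against sham control (edgeR unadjusted p = 0.0307, adjusted p = 0.865) and -1.02 ± 0.31 (SE) against all non-injured libraries (edgeR unadjusted p = 0.0119, adjusted p = 0.460). DESeq2 gave adjusted p = 0.0698 and 0.00909 in these comparisons, so its call holds in the second. Leaving out any 1 library kept the value against sham control between -1.24 and -0.79.

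Chodl had the widest separation. It was recorded with 344 and 924 counts in sham 1 and 2 and 575 counts in the uninjured library, and with 0, 0 and 77 counts in injured 1, 2 and 3. In CPM these were 9.30, 25.5, 14.0, 0, 0 and 1.65, and a count of 0 allows up to 0.0679 CPM in injured 1 and 0.0495 CPM in injured 2, a limit that covers counting error only since reads carried no molecular identifiers. The mean of all non-injured libraries was 29.6-fold above that of the injured ones. The log2 fold change was -4.98 ± 2.41 (SE) against sham control and -4.89 ± 2.24 (SE) against all non-injured libraries, with adjusted p of 0.865 and 0.718 by edgeR and 0.382 and 0.186 by DESeq2. Its error was the largest of the 7, in a group where a single library holds all counts. With cDNA made from 150 pg of RNA a transcript of few copies can be lost from a library, and the part of such loss in the 2 libraries at 0 was not tested.

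**Figure D2:**
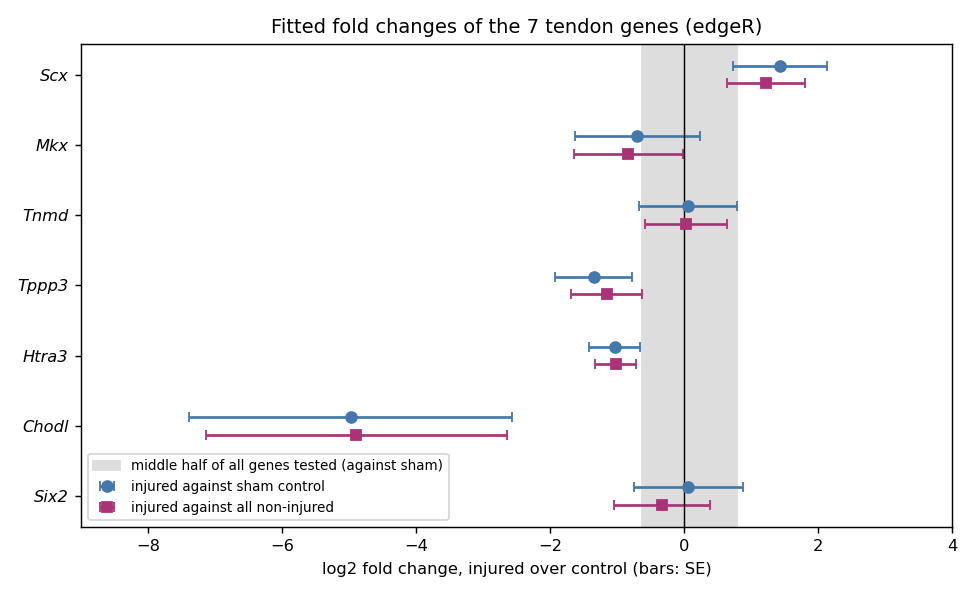
Fitted log2 fold change of each tendon gene (horizontal axis) against sham control (blue circles) and against all non-injured libraries (purple squares), with SE bars and, in grey, the range between the quartiles of all genes tested against sham control (-0.63 to 0.79); against all non-injured libraries that range, not drawn, was -0.63 to 0.55. Scx lies to the right of 0 at 1.43 and 1.22, Chodl far to the left with the widest bars, and Tnmd and Six2 near 0.

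Htra3 and Chodl were both lower in the injured libraries and ranked the 3 controls alike (Pearson's r = 0.95 on log2(CPM + 1) over 6 libraries, a description to which the gap between the groups contributes). Within the injured group they did not go together, since injured 1 had the highest Htra3 of the 3 and no Chodl count. The 250 bases before their RefSeq start sites (GRCm38.p6) are shown because Scx belongs to a class of factors that bind the E-box CANNTG, which is written in capitals. The Htra3 window is chr5:35679781-35680030 on the minus strand and the Chodl window chr16:78930698-78930947 on the plus strand, both printed 5′ to 3′.
Htra3: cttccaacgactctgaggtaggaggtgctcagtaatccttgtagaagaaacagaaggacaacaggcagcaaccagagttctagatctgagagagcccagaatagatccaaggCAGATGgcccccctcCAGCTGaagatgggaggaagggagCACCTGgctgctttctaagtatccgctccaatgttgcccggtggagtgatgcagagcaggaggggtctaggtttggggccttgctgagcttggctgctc
Chodl: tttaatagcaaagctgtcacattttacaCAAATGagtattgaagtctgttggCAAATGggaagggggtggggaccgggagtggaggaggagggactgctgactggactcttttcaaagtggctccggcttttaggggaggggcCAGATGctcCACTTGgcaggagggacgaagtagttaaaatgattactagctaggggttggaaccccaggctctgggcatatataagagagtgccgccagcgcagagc

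The Htra3 window held 3 matches to CANNTG and the Chodl window 4, a motif that reads the same on both strands and that 66% of 27025 promoter windows of this length held at least once. CATCTG, or CAGATG on the other strand, is one form of it; each of these 2 windows held 1, against 14.5% of all windows. The corresponding windows of Tnmd and Six2 held no CANNTG in their 250 bases, which says only that these letters are absent there. Windows of Scx, Mkx and Tppp3 are not given. Not every tendon gene was thus read, nor every gene that was lower in the injured libraries. A match is a stretch of letters and not a measured binding site, and these data hold no measurement of binding.

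Compared per length, as CPM per kilobase of the longest coding transcript in GENCODE M21, Htra3, Tppp3 and Tnmd held the first 3 places in every library. In sham 2 they stood at 288, 193 and 208 CPM per kilobase and in injured 2 at 108, 127 and 87.6. Their order among themselves changed from library to library, so no order among these 3 is given. Scx took place 4 in all 6 libraries, at 8.62, 40.2 and 35.3 CPM per kilobase in sham 1, sham 2 and uninjured libraries and at 55.5, 86.3 and 54.9 in injured 1, 2 and 3. Mkx (1.68 to 11.4), Six2 (2.55 to 12.9) and Chodl (0 to 10.1 CPM per kilobase) filled the last 3 places. Mkx and Six2 were within the spread of each other, and Chodl was the last of the 7 in all libraries except sham 1.

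Ratios between genes of one library do not depend on how libraries are scaled. Over the 6 genes with counts in every library there are 15 pairs, which share genes and are not independent, and for 6 of them the ratio did not overlap between injured and non-injured libraries. The same held for 16.4% of all pairs among the 11225 tested genes with counts in every library. All 5 pairs with Scx were among the 6, and the remaining pair was Tnmd over Htra3. Scx counts were 1.15, 1.00 and 1.17 times those of Mkx in sham 1, sham 2 and the uninjured library, and 5.51, 14.5 and 1.97 times in injured 1, 2 and 3. The controls thus held nearly equal counts of both regulators although their absolute levels differed over 4-fold. In every injured library Scx counts were at least 1.97 times those of Mkx. These are ratios of counts and not of levels per length, since the longest coding transcript has 1.03 kilobases for Scx and 3.65 for Mkx. Relative to Six2, Scx stood at 1.65, 1.80 and 1.33 in the controls and at 3.58, 10.4 and 2.83 in injured 1, 2 and 3. Relative to Tnmd it stood at 0.184, 0.147 and 0.210 in the controls and at 0.234, 0.754 and 0.373 in the injured libraries, so that injured 1 and the uninjured library nearly met. Since Scx alone was already apart between the groups, these ratios describe the same difference free of scaling and are no independent evidence of it.

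**Figure D3:**
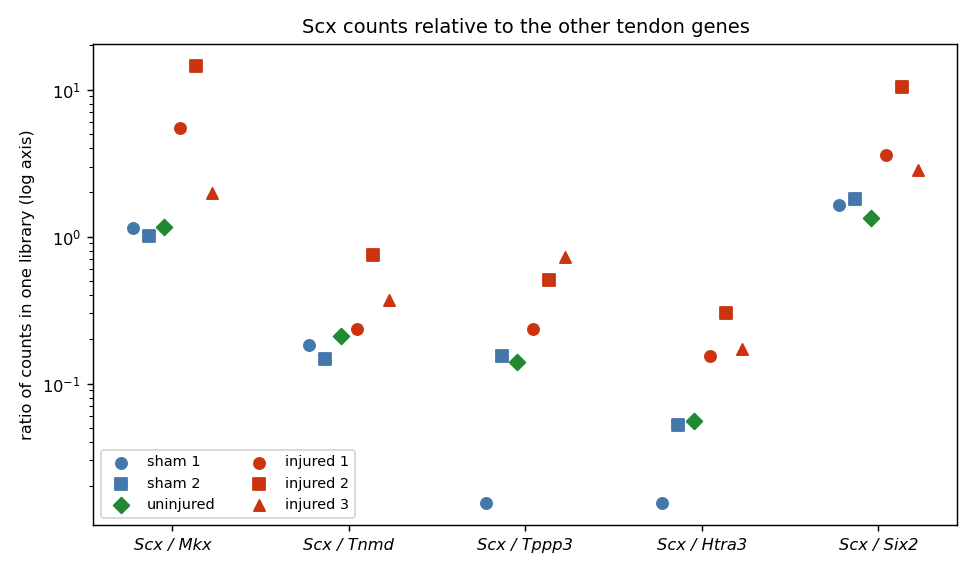
Ratio of Scx counts to those of 5 other tendon genes within each library (log axis), with sham control in blue, uninjured in green and injured in red. For every denominator the 3 injured libraries lie above the 3 controls, with the narrowest gap for Tnmd (0.234 in injured 1 and 0.210 in the uninjured library).

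The uninjured library resembled sham 2 more than sham 1 for most of the 7 genes. Its value fell between those of the sham libraries for 5 genes, slightly below both for Tppp3 (262 against 270 and 580 CPM) and slightly above both for Six2 (27.4 against 23.1 and 5.41 CPM). With 1 uninjured library no test of its difference from sham control is given.

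Relatives of the 7 genes in the same protein families were read in the same fits. Of 15 relatives all had counts somewhere and 15 were tested against sham control, with 8 log2 fold changes above 0 and 7 below. By edgeR 0 passed the adjusted threshold and 4 had an unadjusted p under 0.05 (Cnmd, Six4 and Tppp higher, Htra1 lower), while DESeq2 called 2 (Cnmd and Tppp, both higher), where 4.64% and 2.2% of all genes passed these thresholds. Injured libraries lay wholly above sham control for 5 of the 15 (11.9% of all genes) and wholly below for 1 (9.12%). The median was 0.08, also with the 2 relatives lacking any sham count set to their bound.

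The closest relative of Tnmd, chondromodulin (Cnmd), a BRICHOS protein of cartilage, stood at 1.41, 2.04 and 4.09 CPM in sham 1, sham 2 and uninjured libraries and at 311, 119 and 833 CPM in injured 1, 2 and 3. Cnmd counts were 0.0290, 0.00725 and 0.0235 times those of Tnmd in the controls and 1.27, 1.00 and 5.46 times in the injured libraries. The cartilage relative was thus far below the tendon gene in every control and at least level with it in every injured library, while Tnmd itself overlapped. The chondrocyte markers, Comp among them, took 0.587%, 2.68% and 0.878% of counts in sham 1, sham 2 and uninjured libraries. In injured 1, 2 and 3 they took 1.49%, 1.21% and 5.52%. This sum joins genes that differ. Comp had a log2 fold change of -1.14 against sham control. Col9a1 stood at 5.08, 12.5 and 9.15 CPM in sham 1, sham 2 and uninjured libraries. In injured 1, 2 and 3 it stood at 257, 76.0 and 1030 CPM. Values of the remaining genes of the list are not given here. The part of the chondrocyte markers in the difference was not tested.

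In the Htra family, Htra1, a secreted protease that cleaves matrix proteoglycans, was lower in every injured library than in any control, like Htra3. It stood at 567, 822 and 842 CPM in sham 1, sham 2 and uninjured libraries and at 293, 280 and 396 CPM in injured 1, 2 and 3, its log2 fold change being -1.21 ± 0.34 (SE) against all non-injured libraries (adjusted p = 0.452 by edgeR and 0.00498 by DESeq2). Htra4 stood at 508, 130 and 285 CPM in the controls and at 127, 87.6 and 184 CPM in the injured libraries, so its groups overlapped. Htra2, the mitochondrial member of the family, stayed between 17.3 and 25.0 CPM in all 6 libraries, its injured libraries lying just above both sham libraries.

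Among the relatives of Six2, Six5 was higher in all injured libraries (8.46, 13.2 and 11.4 CPM) than in the controls (2.05, 5.55 and 8.11 CPM), by a small margin over the uninjured library, the log2 fold change against sham control being 1.53 ± 1.01 (SE; adjusted p = 0.865 by edgeR). Six4 stood at 3.60 and 2.15 CPM in sham control and at 22.2, 9.03 and 12.9 CPM in the injured libraries, with the uninjured library at 10.8 CPM among them. Of the Irx genes, TALE homeobox relatives of Mkx, Irx3 stood at 6.14, 53.6 and 24.4 CPM in the controls and at 8.06, 13.4 and 18.2 CPM in injured 1, 2 and 3, and Irx5 at 5.14, 21.2 and 13.5 CPM and 11.4, 17.5 and 29.1 CPM. Both overlapped between the groups. Irx1 never exceeded 0.919 CPM and Irx2 never 3.29 CPM.

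Of the remaining relatives, Tppp alone was apart between injured and non-injured libraries. Tcf15 (paraxis), the closest relative of Scx, stood at 9.51, 0 and 8.03 CPM in sham 1, sham 2 and uninjured libraries and at 0, 3.09 and 0.428 CPM in the injured ones. Tppp, the brain form of the Tppp family, had 1139 counts in injured 1 but 1 and 12 counts in injured 2 and 3 and no count in the controls (adjusted p = 0.865 by edgeR and 0.0357 by DESeq2 against sham control), so that 1 injured library holds nearly all of its counts. Tppp2 had 55 counts in injured 2 and none elsewhere. Layn (layilin), a lectin-domain relative of Chodl, stood at 10.3, 20.0 and 2.29 CPM in the controls and at 13.0, 19.9 and 15.2 CPM in injured 1, 2 and 3, with no separation like that of Chodl.

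**Figure D4:**
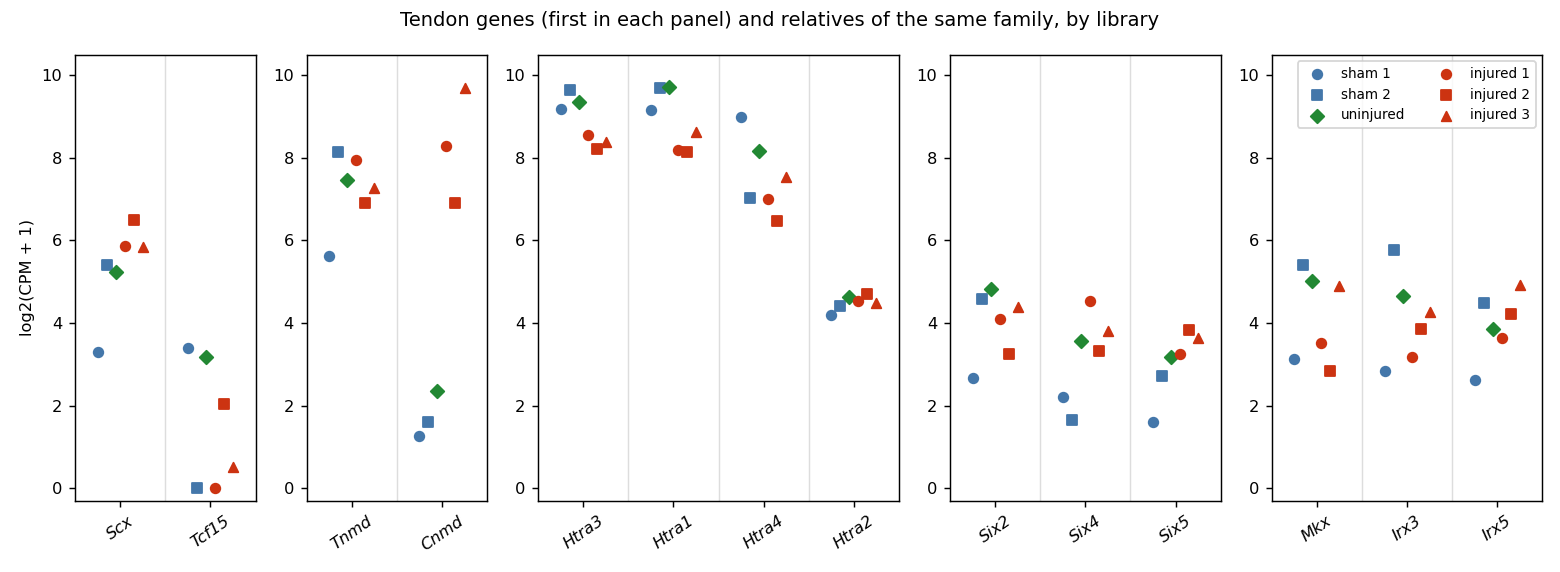
Level of Scx, Tnmd, Htra3, Six2 and Mkx in each library as log2(CPM + 1), with selected relatives in 1 panel per family. Sham control is in blue, uninjured in green and injured in red. Tppp3 and Chodl with their relatives are not drawn, nor are Irx1 and Irx2. Cnmd stands above all controls in the 3 injured libraries (119 to 833 CPM) where Tnmd overlaps, and Htra1 lies below the controls alongside Htra3.

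Signals and factors that act on the tendon program lay mostly below sham control. Of 27 such genes, among them the TGF-beta ligands and receptors, Smad2, Smad3 and Smad4, Egr factors, FGF targets and GDF ligands, 26 were tested against sham control, 21 with a log2 fold change below 0 and 5 above, with a median of -0.72 beside 0.09 over all genes. Injured libraries lay wholly below sham control for 9 and wholly above for 1 of them, where 9.12% and 11.9% of all genes did so. By edgeR 0 passed the adjusted threshold, and 4 had an unadjusted p under 0.05, 3 of them lower, beside 4.64% of all genes. DESeq2 called 1, Egr2, beside 2.2% of all genes. Against all non-injured libraries 24 were tested. There edgeR called 0 and held 7 at an unadjusted p under 0.05, all lower, beside 7.43% of all genes. In that comparison DESeq2 called 3, Egr1, Egr2 and Smad3, all lower, beside 2.45% of all genes. Egr1 nevertheless overlapped between the groups, with 1118 CPM in injured 3 and 1085 CPM in sham 1. Egr2, a growth-response factor that drives collagen genes, stood at 111, 211 and 156 CPM in sham 1, sham 2 and uninjured libraries and at 19.2, 29.9 and 56.3 CPM in injured 1, 2 and 3, a log2 fold change of -2.20 ± 0.56 (SE; adjusted p = 0.865 by edgeR) against sham control. Tgfb1, a ligand that induces Scx in culture, stood at 99.2, 120 and 116 CPM in the controls and at 58.2, 35.2 and 63.4 CPM in the injured libraries. Smad3, which carries the TGF-beta signal to the nucleus, stood at 93.6, 84.8 and 106 CPM and at 41.4, 51.4 and 49.5 CPM. Spry1, a feedback inhibitor of FGF signals, stood at 38.6, 73.9 and 90.7 CPM and at 6.88, 30.1 and 21.2 CPM. These 4 genes and Eya1 were named because they had the list's smallest unadjusted p by edgeR against sham control. That choice favours genes whose groups are apart. In all 4 the groups were apart, in the opposite direction to Scx. Among other TGF-beta genes of the list, Tgfbr2 was also lower in every injured library than in any control. Tgfb2, Tgfb3, Tgfbr1, Smad2 and Smad4 overlapped (log2 fold changes against sham control of -0.07, -0.24, -0.82, -0.11 and -0.03). Eya1, a transcriptional cofactor, had no count in any control and 1, 330 and 150 counts in injured 1, 2 and 3. Its injured mean was at least 70.6-fold above sham control on a floor of 3 counts over the group, or 0.041 CPM. Injured 1, at 0.0226 CPM, lay below that floor, so the bound rests on injured 2 and 3. The floor covers counting error only. The adjusted p against sham control was 0.865 by edgeR and 0.165 by DESeq2.

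The matrix genes of tendon did not move in 1 direction. Of 27 tested, 18 had a log2 fold change above 0 and 9 below against sham control, with a median of 0.16. By edgeR 0 passed the adjusted threshold, 5 had an unadjusted p under 0.05 (4.64% of all genes did), and DESeq2 called 2 (2.2% of all genes), Cilp and Cilp2, fibrocartilage matrix proteins, both lower. Cilp stood at 176 to 319 CPM in the injured and at 2033 to 3319 CPM in the non-injured libraries, and Cilp2 at 19.3 to 57.9 and 504 to 1162 CPM. Prelp, a leucine-rich proteoglycan, stood at 491 to 828 CPM in the injured and 1084 to 2654 CPM in the non-injured libraries. Tenascin C (Tnc), a matrix glycoprotein of remodelling tendon, stood at 134, 393 and 136 CPM in the controls against 940, 478 and 925 CPM in the injured libraries, and fibrillin 1 (Fbn1) at 325, 320 and 303 CPM against 755, 555 and 542 CPM. These were the 2 of 27 matrix genes whose injured libraries lay wholly above sham control, and above every control, while 11.9% and 9.23% of all genes did so. Injured libraries lay wholly below for 4 of 27 in both comparisons, beside 9.12% and 7.07% of all genes: Cilp, Cilp2, Prelp and decorin (Dcn), a proteoglycan of collagen fibrils, which was added after its values were seen. Dcn stood at 8730, 21175 and 20475 CPM in sham 1, sham 2 and uninjured libraries and at 3522, 6324 and 4680 CPM in injured 1, 2 and 3 (adjusted p against all non-injured libraries 0.546 by edgeR and 0.00242 by DESeq2). In that comparison DESeq2 called 5 of the 27, these 4 lower and Tnc higher, beside 2.45% of all genes.

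Of 12 genes of tendon sheath and progenitor cells, 10 had a log2 fold change below 0 and 2 above against sham control, with a median of -0.24. Over all genes tested, 7706 log2 fold changes lay below 0 and 8997 above, with a median of 0.09. By edgeR 0 of the list passed and 0 had an unadjusted p under 0.05 (4.64% of all genes did). DESeq2 called 0 of the list (2.2% of all genes). Prg4 (lubricin), a lubricating glycoprotein of tendon surfaces, stood at 7396, 10195 and 4838 CPM in sham 1, sham 2 and uninjured libraries and at 3273, 4341 and 6394 CPM in the injured ones, lower than both sham libraries but overlapping the uninjured one. Cd34 stood at 511, 292 and 746 CPM and at 308, 199.8 and 119 CPM, Nes (nestin) at 64.8, 7.07 and 0 CPM and at 22.9, 5.15 and 6.10 CPM, Pdgfrb at 131, 223 and 219 CPM and at 149, 110 and 111 CPM, and Cd44 at 86.9, 277 and 215 CPM and at 240, 309 and 253 CPM. None of these 4 separated the groups as Tppp3 did.

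**Figure D5:**
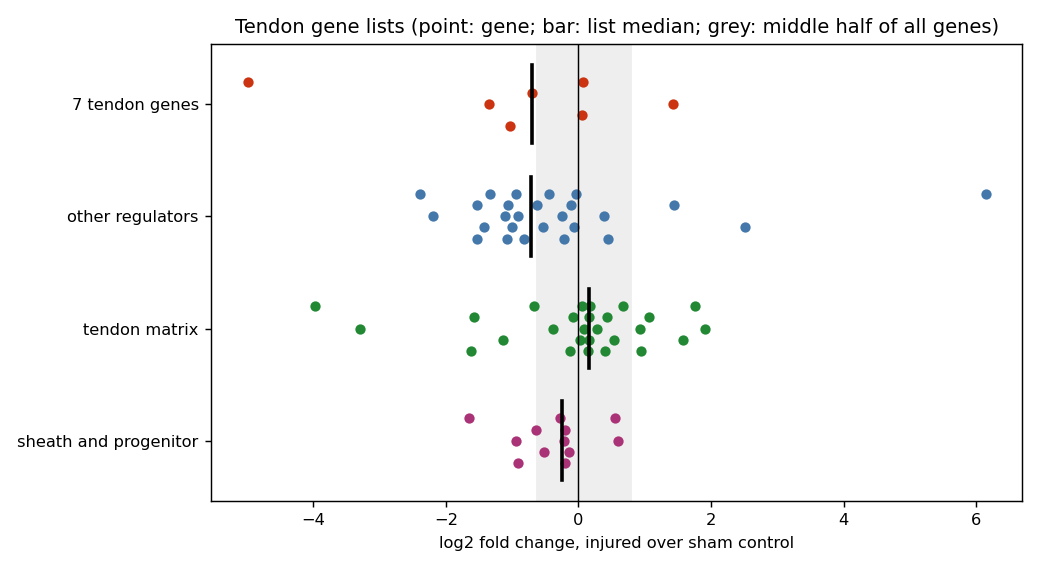
Log2 fold change against sham control (horizontal axis) of every tested gene in 4 groups of tendon genes, each point a gene and each black bar the median, over a grey range between the quartiles of all genes (-0.63 to 0.79). The medians are -0.70, -0.72, 0.16 and -0.24 from top to bottom, and Eya1, the point farthest right, is drawn at its lower bound of 6.14.

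The genes whose pattern over the 6 libraries was most like that of each of the 7 were ranked by Pearson's r on log2(CPM + 1) among all genes tested against sham control, as a description, with many genes above 0.95 for each. For Scx they were 0610009B22Rik (0.993), Cntln (0.992) and Gm13498 (0.992), with 81 genes above 0.95. For Mkx they were Snupn (0.995), Prkca (0.992) and Glis1 (0.988). Tnmd had Tfpi2 (0.993), Trpc2 (0.990) and Zfp958 (0.987), all 3 without a count in sham 1. Six2 had Ccdc157 (0.992), Cry1 (0.988) and Galnt11 (0.983), Tppp3 had H2-K2 (0.997), Irf2 (0.995) and Best1 (0.987), Htra3 had Cst3 (0.983), Dlgap4 (0.982) and Mob2 (0.977), and Chodl had Cp (0.996), Pex5l (0.992) and Steap3 (0.990). Among the 7 themselves the highest r after that of Htra3 with Chodl was that of Mkx with Six2 (0.87), and that of Scx with Mkx was 0.10. The lowest was that of Scx with Tppp3 (-0.76).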

How the data were processed

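RNA of sorted mouse skeletal stem cells was sequenced in 6 libraries from 150 pg of total RNA each, per the labels' protocols. The deposited table gives whole-number counts per gene symbol; Salmon 0.12.0, DESeq2 1.22.2, DESeq and the builds GRCm38.p6 and mm9 are named without roles per the submitters' processing notes. The sources used here do not state how transcripts were summed to genes, the annotation or the strand setting. All 6 columns were used, and none was left out (0 unused). Of 26130 rows, 26 carried names turned into dates.

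Counts were scaled by TMM, filtered by filterByExpr (minimum count 10) and tested with edgeR 4.0.16 in R 4.3.3 (quasi-likelihood F test, Benjamini-Hochberg over all genes, threshold 0.05), with 6 libraries in 3 groups, or 2 groups of 3. SEs come from the F statistic. The fits were tested on simulated counts in which every gene varied alike between libraries. That test does not cover libraries as uneven as sham 1 and sham 2 here. DESeq2 1.42.0, limma 3.58.1 (voom), other scalings, no filter, a replicate block and left-out libraries were alternatives. The 7 genes, the lists and the rule for named genes (all 7, the 5 smallest p of each tendon list, all relatives, and the 3 most alike by Pearson's r) were chosen with earlier results of these data known; Bop1 and Dcn were added after their values were seen, as were the ratios within libraries. The result of 1 relative is not reported here.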

Additional observations from a re-analysis of the deposited data

How the results depend on the processing

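Scx stayed above 0, and Htra3, Tppp3 and Chodl below 0, in all 13 alternatives against sham control and all 12 against all non-injured libraries, where Mkx also stayed below 0. The number of genes called moved from 0 to 369 (DESeq2), 1 (limma-voom) and 3 (no low-count filter) against sham control, and from 0 to 345, 7 and 5 against all non-injured libraries; of the 7 tendon genes, DESeq2 called 1, Htra3 (log2 fold change -1.07). Over fits leaving out 1 library each, the value against sham control ranged for Six2 from -0.63 to 1.46, for Mkx from -1.58 to 0.97 and for Tnmd from -0.71 to 1.83, and that against all non-injured libraries for Six2 from -0.76 to 0.08 and for Tnmd from -0.41 to 0.63. Chodl reached -12.57 without injured 3, its only injured library with counts. Without both blood-rich libraries, sham 1 and injured 1, Six2 stood at -0.69 and Tnmd at -1.06 against sham control, and Tnmd at -0.75 against all non-injured libraries. In the latter, Tnmd was -0.0044 by DESeq2 and likewise with RLE size factors. The cause of these turns was not tested. Where an arm keeps 1 library, it is assumed to vary like the others. Replicate numbers are shared by sham and injured libraries but nothing says that they pair them: deviations correlated at 0.353 for number 1 and 0.0107 for number 2. With the replicate block, 0 genes and 0 of the 7 were called, and Scx stood at 1.87. Sham control holds only 2 libraries; how far the RNA input or depth limits these values was not tested.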
